A study of Homo sapiens with 6 samples.

Results

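The genes described here are 32 members of the mitochondrial tricarboxylic acid (TCA) cycle and the steps that feed it, taken by symbol from the 60656 genes of the count table. They were chosen by function, with earlier results of these data known. They cover pyruvate entry, the cycle itself, the glutamine and malate–aspartate steps, and the cytosolic enzymes that run the same reactions outside the mitochondrion. All 32 symbols were found. The TCA cycle oxidizes acetyl-CoA made from pyruvate, fatty acids or amino acids, passing the electrons to the respiratory chain. Its intermediates are also drawn off, citrate for lipid synthesis and oxaloacetate for aspartate, and the carbon is replaced by anaplerotic enzymes, by glutamine or by shuttles across the inner membrane. Proliferating cancer cells are known for heavy use of these exits, and paired mitochondrial and cytosolic enzymes link the cycle to cytosolic NADPH and to aspartate.

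RNA was profiled in parental ZR-75-1 cells, an oestrogen receptor-positive human breast cancer line that is the wild-type counterpart of an isogenic RB1 knockout, which was not analysed here. The 3 control libraries came from cells kept with DMSO and the 3 treated libraries from cells given 500 nM abemaciclib, an inhibitor of CDK4 and CDK6, the kinases that phosphorylate and inactivate Rb. Both groups were grown for 4 days in RPMI-1640 with serum, a medium that supplies glucose and glutamine. The study compared them to ask what Rb activation does to transcription. All values come from 1 cell line at 1 dose and 1 time. The libraries read the 3′ end of polyadenylated RNA, so that a count stands for a transcript end whatever the transcript's length.

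Each library held between 3317860 and 4013156 counts, and levels are given below as CPM, counts brought to one common library size after TMM scaling. A count of 0 allows up to 3 counts, or 0.747 to 0.904 CPM, a limit that covers counting error only. All 8 luminal epithelial markers were present, with GATA3 at 1793 CPM and ESR1 at 211 CPM on average with DMSO. The defining markers VIM, COL1A2, PECAM1, PTPRC, KRT5 and KRT14 of other cell types were at 0 in every library, VWF and CD68 reached at most 1.51 CPM, and the fibroblast gene COL1A1 was at 10.1 to 15.8 CPM in both groups. MKI67, a proliferation gene, averaged 526 ± 31.4 CPM (SD, n = 3) with DMSO and 5.00 ± 2.28 CPM with abemaciclib. RB1 itself was present in every library, at 56.2 CPM on average with DMSO and 33.9 CPM with abemaciclib (adjusted P = 0.00104). The treated library of replicate 3 differed most from its group, with a chi-square per degree of freedom of 6.98 and 7.41 against replicates 1 and 2, which differed from each other by 3.47 and DMSO libraries by 2.83 to 4.21. Whether the loss of dividing cells has a part in the values below was not tested, and in bulk RNA fewer cells of a type and less RNA per cell cannot be told apart.

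Promoter sequences are shown here for 3 members that changed, ME1, IDH1 and GOT1, which hold motifs known from genes of NADPH and amino acid supply. SLC25A11, which did not pass the test, is shown for its E2F match, since abemaciclib acts on Rb, which binds E2F factors at promoters. The window runs from 250 bases before to 50 after each RefSeq start (GRCh38.p14), and 31 of the 32 members were matched, OGDH being the exception. The letters TTTCCCGC, TTTCGCGC, TTTGCCGC and TTTGGCGC, known from E2F sites, stood on either strand in the windows of IDH3B, PDHA1 and SLC25A11, which is 3 of 31 members, against 3.99% of 27305 genes. None of these 3 members passed the test described below. The antioxidant response element, TGACNNNGC, known from NRF2 targets, stood in 7 of 31 members, against 16.1% of all genes. ME1 and IDH1 were among them, and the others, GOT2, IDH3G, MPC1, SLC25A1 and SUCLG1, did not pass the test. The ATF4 and CEBP composite element, TGATGNAAN, known from genes of the amino acid response, stood in 2 members, GOT1 and SLC25A11, against 4.45% of all genes. These last 2 motifs were added after the values were seen. Capitals in the 250 bases before the start mark the match, read along the gene's strand, which is the minus strand for all 4 genes. The ME1 window is chr6:83431052-83431301, that of IDH1, at 1 of its starts, is chr2:208255072-208255321, that of GOT1 is chr10:99430625-99430874 and that of SLC25A11 is chr17:4940047-4940296.
ME1: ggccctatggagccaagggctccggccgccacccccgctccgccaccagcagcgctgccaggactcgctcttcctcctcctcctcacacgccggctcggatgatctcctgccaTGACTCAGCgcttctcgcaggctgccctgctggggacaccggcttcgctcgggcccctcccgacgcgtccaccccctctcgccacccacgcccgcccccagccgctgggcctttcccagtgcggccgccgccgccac
IDH1: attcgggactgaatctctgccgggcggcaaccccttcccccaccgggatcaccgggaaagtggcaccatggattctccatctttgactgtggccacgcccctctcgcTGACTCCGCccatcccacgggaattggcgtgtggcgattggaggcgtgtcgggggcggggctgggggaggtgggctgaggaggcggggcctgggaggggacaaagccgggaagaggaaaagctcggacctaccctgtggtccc
GOT1: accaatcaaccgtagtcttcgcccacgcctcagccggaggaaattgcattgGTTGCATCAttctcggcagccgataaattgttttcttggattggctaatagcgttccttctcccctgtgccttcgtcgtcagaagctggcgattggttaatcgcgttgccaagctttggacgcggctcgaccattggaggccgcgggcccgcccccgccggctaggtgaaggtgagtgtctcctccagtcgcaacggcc
SLC25A11: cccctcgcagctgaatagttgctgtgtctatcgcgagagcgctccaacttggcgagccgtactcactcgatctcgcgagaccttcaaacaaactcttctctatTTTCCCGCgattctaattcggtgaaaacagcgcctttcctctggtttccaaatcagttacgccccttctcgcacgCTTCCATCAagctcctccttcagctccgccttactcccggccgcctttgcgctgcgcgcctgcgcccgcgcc
The match shown in ME1 begins 137 bases before the start, and a further match begins within the 50 bases after it. The match in IDH1 begins 143 bases before its start. In GOT1 the composite element lies 199 bases before the start, on the opposite strand of the gene. SLC25A11 holds an E2F match 147 bases before its start and a composite element 72 bases before it. Of the other motifs searched, the NRF1 core GCGCATGC was found in DLD alone (3.68% of all genes), the E-box CACGTG in ME3 and PDHB (8.78%), and the oestrogen-related receptor element TCAAGGTCA in no member (0.432%). PCK2, ACO1 and FH, which also changed, held none of the motifs searched, and OGDH, which changed too, had no window. A match describes letters in a window, and binding was not measured here.

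Abemaciclib changed 7 of the 31 members that had enough counts for a test, and the changes ran in both directions. ME1, ACO1, IDH1 and OGDH rose, and PCK2, GOT1 and FH fell (edgeR quasi-likelihood test, adjusted P under 0.05 over all 10863 genes tested). That share, 22.6%, stood beside 25.7% of all genes tested, of which 12.5% were higher and 13.3% were lower. Of the 5 enzymes of the cytosol, 4 were among the 7, with 3 higher and 1 lower. Only ME1 and ACO1 of these stayed called with DESeq2. The median log2 fold change of the members was 0.03, against -0.002 over all genes, and their median absolute change was 0.22, against 0.32 over all genes. The groups did not overlap for 6 members whose treated libraries were all the higher and 5 whose treated libraries were all the lower, where 39.1% of all genes had no overlap (19.1% and 20.1% in each direction). The remaining member, ME3, an NADP-dependent mitochondrial malic enzyme, had 1 count in the first DMSO library and 0 in every other library, and was not tested.

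**Figure D1:**
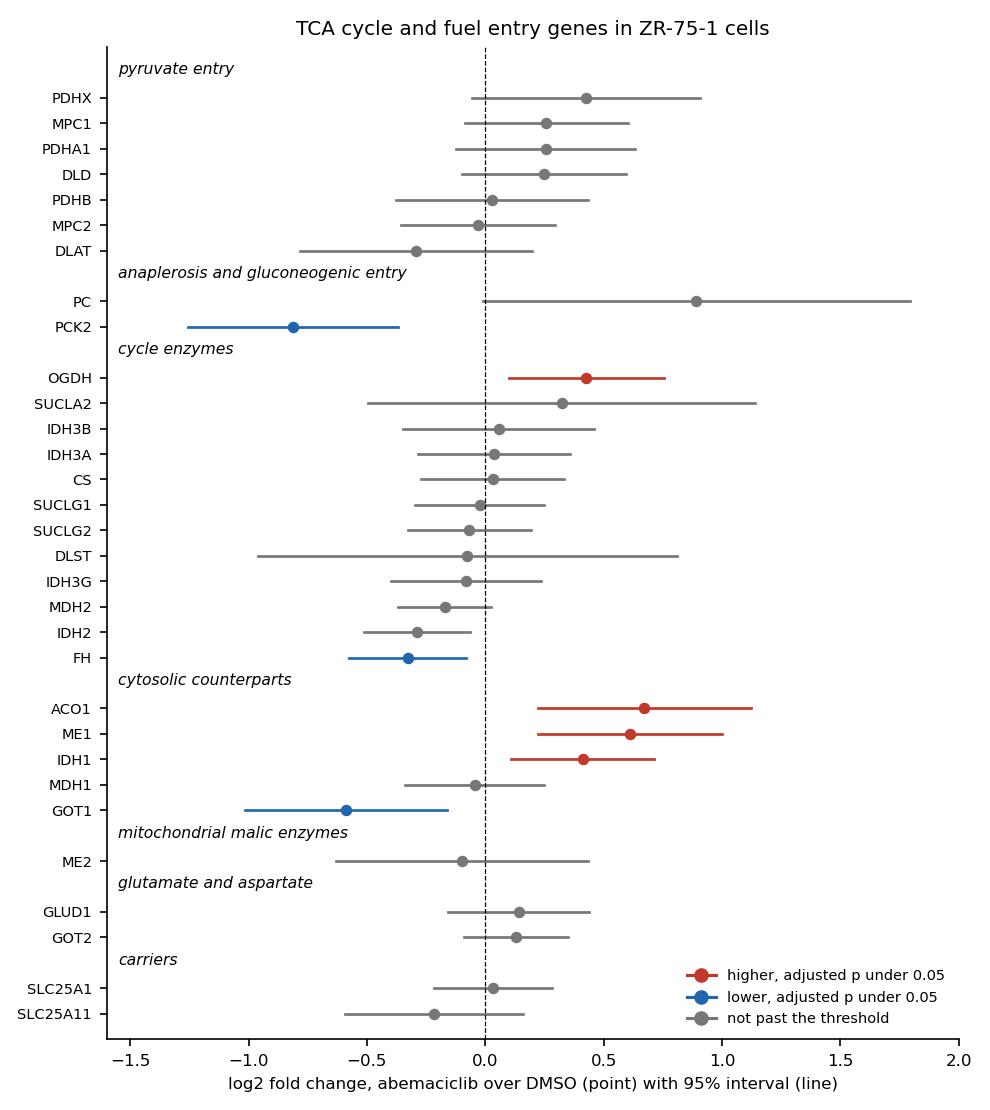
Log2 fold change of each tested member, abemaciclib over DMSO (x axis), with the 95% interval as a line and members grouped by role (y axis). The 4 members that rose and the 3 that fell lie to the right and left of 0, and the intervals of PC, DLST and SUCLA2 are the widest.

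The summed level of the members was 2140, 2168 and 2197 CPM in the DMSO libraries and 2197, 2210 and 2069 CPM in the abemaciclib libraries, so that the groups overlapped and the means differed by -9.19 CPM, less than the SD of either group (28.5 and 77.9 CPM). The sign of that difference turned with single libraries, from -35.0 CPM without abemaciclib replicate 2 to 35.6 CPM without abemaciclib replicate 3. The members took 0.201% to 0.223% of all counts. Without SLC25A1, they took 0.1714%, 0.1716% and 0.1695% in the DMSO libraries and 0.1621%, 0.1718% and 0.1674% in the abemaciclib libraries. Levels within the set were spread widely. SLC25A1, the citrate carrier, was the highest at a mean of 460 CPM with DMSO, followed by MDH2, the mitochondrial malate dehydrogenase, at 304 CPM, while PC, DLST and SUCLA2 stood at 4.93, 5.51 and 5.94 CPM.

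Pyruvate enters the mitochondrion through the MPC1–MPC2 carrier and is converted to acetyl-CoA by the pyruvate dehydrogenase complex. None of the 7 genes of this step passed the test, and 5 of the 7 had a positive log2 fold change. For PDHX, which anchors the DLD subunit in the complex, the DMSO libraries read 16.8, 16.3 and 14.5 CPM and the abemaciclib libraries 17.2, 19.98 and 26.8 CPM. The groups did not overlap, but the change of 0.42 had a 95% interval from -0.06 to 0.91 (adjusted P = 0.197). Changes of 0.26 for MPC1, 0.25 for PDHA1 and 0.25 for DLD had intervals that reached from -0.12 at the lowest to 0.63 at the highest. PDHA1 and PDHB encode the decarboxylase subunits and DLAT the acetyltransferase core. PDHB and MPC2 had estimates of 0.03 and -0.03. DLAT, at 18.6, 19.9 and 17.6 CPM with DMSO, read 15.7, 17.5 and 12.4 CPM with abemaciclib, each library below every control, with a change of -0.29 (interval -0.78 to 0.20, adjusted P = 0.411). The 3′ ends of PDHA1 and DLAT overlap genes on the opposite strand, MAP3K15 and PIH1D2, and reads of such a pair cannot be told apart where strand was not used.

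Oxaloacetate is made from pyruvate by pyruvate carboxylase, PC, and is drawn off to phosphoenolpyruvate by PCK2, the mitochondrial carboxykinase. PCK2 fell to 0.57-fold, the largest change among the members that passed the test. Its level was 29.0, 23.8 and 27.6 CPM in the DMSO libraries and 13.9, 16.5 and 15.1 CPM in the abemaciclib libraries. Each treated library lay well below the lowest control. The log2 fold change was -0.81 ± 0.22 (SE, n = 3, adjusted P = 0.00578), and it stayed between -0.89 and -0.75 and past the threshold whichever library was left out. PC read 6.09, 4.46 and 4.24 CPM with DMSO and 16.6, 6.66 and 4.59 CPM with abemaciclib. Of the treated libraries the first stood well above the controls, and the groups overlapped. Its change of 0.89 had the largest size and the largest SE of any member (0.44, adjusted P = 0.143). Without abemaciclib replicate 1 it was 0.19, and without abemaciclib replicate 3 it was 1.22 and passed the test (adjusted P = 0.0254).

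Of 12 tested enzymes of the cycle proper, OGDH rose, FH fell and 10 did not pass the test. That share, 16.7% called, stood beside 25.7% of all genes tested. OGDH is the decarboxylase of the 2-oxoglutarate dehydrogenase complex, which makes succinyl-CoA. It stood at 39.7, 41.3 and 42.4 CPM with DMSO and at 60.5, 61.2 and 44.3 CPM with abemaciclib. The first and second treated libraries lay far above the controls and the third just above them. The change was 0.43 ± 0.16 (SE, n = 3, adjusted P = 0.0490), the member nearest to the threshold. It was lost with DESeq2 (adjusted P = 0.0741), scaling by totals alone (0.0627), all genes kept (0.0626) or a minimum of 10 counts (0.0535), and without any one library except abemaciclib replicate 3, with values of 0.40, 0.43 and 0.45 without DMSO replicates 1, 2 and 3 and of 0.36 and 0.35 without abemaciclib replicates 1 and 2. Without abemaciclib replicate 3 it was 0.57 (adjusted P = 0.00717).

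FH, the fumarase that makes malate from fumarate, was measured at 111, 121 and 96.3 CPM with DMSO and at 85.9, 88.6 and 86.5 CPM with abemaciclib. All treated libraries lay below all controls and close together. The change was -0.33 ± 0.12 (SE, n = 3, adjusted P = 0.0451). DESeq2 gave an adjusted P of 0.0682 and edgeR without a filter on low counts 0.0806, and the call also ended without DMSO replicate 1 (-0.32), DMSO replicate 2 (-0.25), or any abemaciclib replicate (-0.32, -0.34 and -0.32). IDH2, the mitochondrial NADP-dependent isocitrate dehydrogenase, had levels of 146, 161 and 150 CPM with DMSO and of 129, 132 and 114 CPM with abemaciclib. These groups did not overlap either, and the change of -0.29 ± 0.11 missed the threshold (adjusted P = 0.0525), passing it with total counts as the only scaling (adjusted P = 0.0476) and with a minimum of 10 counts in every library (0.0421). MDH2, the malate dehydrogenase that closes the cycle, had a change of -0.17 (interval -0.37 to 0.03), with every treated library below every control.

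The other enzymes of the cycle had estimates nearer to 0. SUCLG1, the shared subunit of succinyl-CoA ligase, had the smallest change of all members, -0.02. It read 83.0, 83.5 and 101 CPM with DMSO and 78.7, 103 and 81.1 CPM with abemaciclib, and the groups overlapped. CS, the citrate synthase that opens the cycle, changed by 0.03, the 3 subunits of the NAD-dependent isocitrate dehydrogenase by 0.04 (IDH3A), 0.06 (IDH3B) and -0.08 (IDH3G), and SUCLG2, the GTP-specific ligase subunit, by -0.07. The 3′ end of IDH3A overlaps ACSBG1 on the opposite strand. SUCLA2, the ATP-specific ligase subunit, and DLST, the succinyltransferase of the OGDH complex, were too thinly counted to be placed, with changes of 0.32 (interval -0.50 to 1.14) and -0.08 (interval -0.96 to 0.81). Over the 24 tested members that did not pass, 22 had an interval within 1 log2 unit of 0 and 13 within 0.5.

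**Figure D2:**
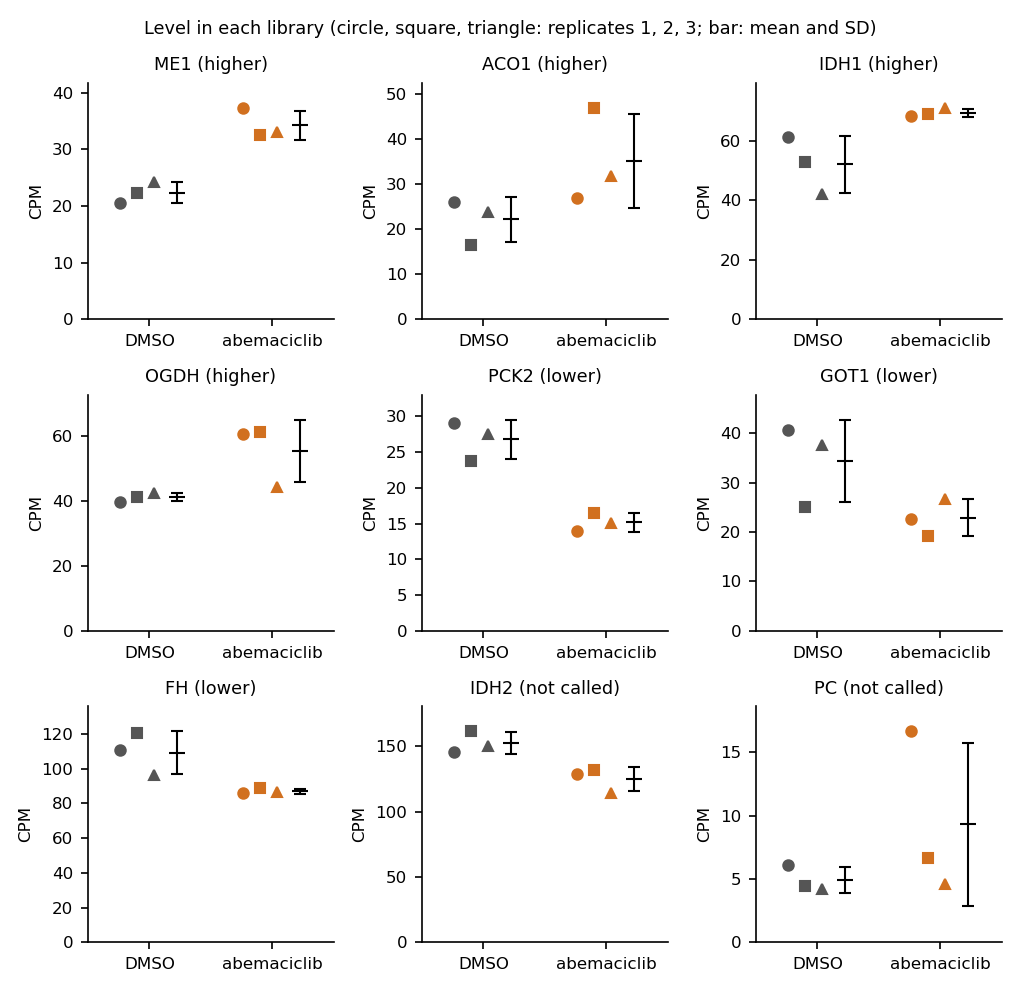
Level in CPM (y axis) in each DMSO and abemaciclib library (x axis) for the 7 members that passed the test and for IDH2 and PC, with bars for the mean and SD of the 3 libraries. The groups are apart for ME1, ACO1, IDH1, OGDH, PCK2, FH and IDH2 and overlap for GOT1 and PC, where a single treated library reaches 16.6 CPM.

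In the cytosol, ME1, ACO1 and IDH1 rose and GOT1 fell, while MDH1 did not pass the test. ME1 is the cytosolic malic enzyme, which turns malate into pyruvate and makes NADPH. It stood at 20.6, 22.3 and 24.2 CPM with DMSO and at 37.2, 32.6 and 33.0 CPM with abemaciclib. All treated libraries lay above all controls, with a 1.53-fold rise (log2 0.61 ± 0.19, SE, n = 3, adjusted P = 0.0167). The change held its size but not its call without DMSO replicate 1 (0.55, adjusted P = 0.0691), DMSO replicate 2 (0.61, 0.0540) or abemaciclib replicate 1 (0.55, 0.0617).

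ACO1, the cytosolic aconitase, is also the iron regulatory protein that binds messenger RNAs of iron metabolism when it lacks its iron–sulphur cluster. It was counted at 26.1, 16.6 and 23.9 CPM with DMSO and at 26.9, 46.9 and 31.9 CPM with abemaciclib. The groups were apart by a narrow margin, between the first DMSO and the first abemaciclib library, and the second abemaciclib library was the highest. The rise was 1.59-fold (log2 0.67 ± 0.22, SE, n = 3, adjusted P = 0.0236). It was 0.50 without DMSO replicate 2 (adjusted P = 0.159) and 0.41 without abemaciclib replicate 2 (0.248), so that the call rested on those libraries.

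IDH1, the cytosolic NADP-dependent isocitrate dehydrogenase, had 61.2, 52.9 and 42.1 CPM with DMSO and 68.4, 68.8 and 70.8 CPM with abemaciclib. The treated libraries lay within a narrow band above the spread of the controls. The rise was 1.33-fold (log2 0.41 ± 0.15, SE, n = 3, adjusted P = 0.0391). It fell short with DESeq2 (adjusted P = 0.0578) and without DMSO replicate 2 (0.42), DMSO replicate 3 (0.28), or abemaciclib replicates 1, 2 and 3 (0.42, 0.42 and 0.40).

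GOT1, the cytosolic aspartate aminotransferase of the malate–aspartate shuttle, was at 40.6, 24.95 and 37.6 CPM with DMSO and at 22.7, 19.2 and 26.8 CPM with abemaciclib. The second DMSO library lay within the range of the treated ones, so that the groups overlapped. The level fell to 0.67-fold (log2 -0.59 ± 0.21, SE, n = 3, adjusted P = 0.0374). DESeq2 gave an adjusted P of 0.0613, and the call ended when replicate 1 (-0.45) or 3 (-0.52) was left out of the DMSO group, or replicate 1 (-0.58) or 2 (-0.47) out of the abemaciclib group. MDH1, the cytosolic malate dehydrogenase of the same shuttle, changed by -0.05, with an interval from -0.34 to 0.25.

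Of the remaining mitochondrial steps, none passed the test. ME2, the NAD-dependent malic enzyme, had a change of -0.10 (interval -0.63 to 0.43). GLUD1, which converts glutamate to 2-oxoglutarate, changed by 0.14 (interval -0.16 to 0.44). GLUD1 has a near-identical copy, GLUD2, counted at 6.72 CPM with DMSO against 51.7 CPM for GLUD1, and how reads were split between them is uncertain. GOT2, the mitochondrial aspartate aminotransferase, read 130, 133 and 124 CPM with DMSO and 141, 145 and 137 CPM with abemaciclib, each treated library above each control, for a change of only 0.13 (interval -0.09 to 0.35). The carriers SLC25A1, which exports citrate, and SLC25A11, which exchanges 2-oxoglutarate for malate, changed by 0.03 and -0.22, and both groups overlapped. SLC25A1 ranged from 345 CPM in the third abemaciclib library to 557 CPM in the first.

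Ratios within a library do not depend on how libraries are scaled, and 6 pairs of related members were compared in this way. The log2 ratio of IDH1 to IDH2 was -1.25, -1.61 and -1.83 in the DMSO libraries and -0.91, -0.94 and -0.69 in the abemaciclib libraries. It was higher in every treated library than in any control, by 0.72 (exact permutation test, two-sided, P = 0.1, adjusted P = 0.2 over 6 ratios). The ratio of ME1 to ME2 was likewise higher in every treated library, at 1.68, 0.91 and 1.04 against 0.72, 0.21 and 0.56 with DMSO, a difference of 0.72 with the same P values by the exact permutation test. PC to PCK2 differed by 1.51, from -2.22, -2.38 and -2.66 to 0.26, -1.296 and -1.69, again with an exact permutation P of 0.1. Without abemaciclib replicate 1, the library with the high PC level, the difference was 0.93, and that of ME1 to ME2 was 0.48. With 3 libraries against 3 the smallest P this test can give is 0.1, so that none of the ratios could pass the threshold. GOT1 to GOT2 differed by -0.70, SUCLA2 to SUCLG2 by 0.40 and MDH1 to MDH2 by 0.13, and in all 3 the groups overlapped. ME1 to ME3 was not computed, since ME3 was not tested.

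The changes of the members were of moderate size among those of all genes tested. The 7 called members had changes between 0.33 and 0.81 in size, and none of the 31 exceeded 1 log2 unit. The biological coefficient of variation of the comparison was 13.2%. On simulated counts for the same comparison, in which the test ran on 10688 genes, it recovered 8 of 50 genes changed by 0.5 and 41 of 48 changed by 1 on the log2 scale. Only 200 genes were changed in the simulation, whereas 25.7% of all genes tested were called in the data. An adjusted P depends on how many genes change, so the recovered shares do not carry over to these members.

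A further 51 genes of the pathway, written down as the rest of the cycle, its control, its fuels and its shuttles, were read in the same fit. Of the 38 with enough counts, 7 rose and 5 fell (31.6%, against 25.7% of all genes), with a median log2 fold change of -0.13. DHTKD1 and FAHD1, listed with the rest of the cycle, are related enzymes rather than steps of it. DHTKD1, a 2-oxoadipate dehydrogenase subunit related to OGDH, fell from 174, 164 and 185 CPM to 110, 97.7 and 89.7 CPM (log2 -0.82, adjusted P = 2.13e-06). FAHD1, a mitochondrial oxaloacetate decarboxylase, fell from 74.5, 96.8 and 84.8 CPM to 56.0, 58.7 and 52.7 CPM (0.65-fold, adjusted P = 0.00117). Of the succinate dehydrogenase subunits, SDHA, SDHB and SDHD did not pass the test (-0.18, -0.36 and -0.16). SDHC, named after its values were seen, rose by 0.39 (adjusted P = 0.0191), a call lost without DMSO replicate 3 (0.25) or abemaciclib replicate 3 (0.24).

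Among the phosphatase genes that switch pyruvate dehydrogenase on or regulate that step, PDP2 and PDPR rose. PDP1 did not pass the test, nor did the genes of the complex itself. Which catalytic subunit PDPR works with was not measured here. PDP2, a catalytic subunit, rose from 31.0, 28.2 and 28.8 CPM to 59.3, 51.3 and 49.99 CPM (1.82-fold, adjusted P = 0.000187). PDPR, a regulatory subunit, rose from 27.6, 31.2 and 32.1 CPM to 50.8, 48.1 and 49.99 CPM (1.64-fold, adjusted P = 0.00154). In both genes every treated library lay far above every control, and both calls held under each other setting tried. PDP1, the alternative catalytic subunit, had a change of 0.61 that did not pass (adjusted P = 0.160). The inhibitory kinases PDK2 and PDK3 had estimates of 0.01 each, while PDK1 and PDK4 had too few counts for a test. The 3′ end of PDK2 overlaps SAMD14 on the opposite strand.

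Of the 5 tested genes of lactate, acetate and citrate use, 2 rose and 1 fell. ACLY, which splits exported citrate, rose from 206, 166 and 164 CPM to 240, 220 and 279 CPM (log2 0.46, adjusted P = 0.00273). ACSS2, which makes acetyl-CoA from acetate, had a larger change from a low level, from 5.51, 6.54 and 9.69 CPM to 10.6, 18.0 and 11.3 CPM (log2 0.89, adjusted P = 0.0480), lost with DESeq2 (0.0694), with total counts as the only scaling (0.0537), and without DMSO replicate 1 (0.72), DMSO replicate 2 (0.82) or abemaciclib replicate 2 (0.60). LDHB, the lactate dehydrogenase subunit known for turning lactate into pyruvate, had 38, 20 and 24 counts with DMSO and 2, 5 and 5 with abemaciclib (log2 -2.86, adjusted P = 0.000178). Its 3′ end overlaps another annotated gene on the same strand, and its treated level of 1.06 CPM lay near the detection limit. LDHA had a change of -0.24 that did not pass (adjusted P = 0.162).

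Further calls came from the shuttles and the glutamine genes. GPD2, the mitochondrial glycerol phosphate dehydrogenase that passes cytosolic electrons to the respiratory chain, fell from 50.2, 32.4 and 32.4 CPM to 10.3, 13.6 and 9.73 CPM (0.29-fold, adjusted P = 9.20e-07). All of its treated libraries lay under the lowest control by a wide margin. SLC38A2, a neutral amino acid transporter that carries glutamine, fell from 69.9, 78.4 and 70.6 CPM to 46.9, 46.6 and 43.0 CPM (0.62-fold, adjusted P = 0.000495). SLC25A10, the dicarboxylate carrier, named after its values were seen, rose by 0.41 (adjusted P = 0.0370). The call was lost with DESeq2 (0.0559) and without any one library except abemaciclib replicate 3, with values of 0.33 to 0.45. The 3′ end of SLC25A10 overlaps another annotated gene on the same strand. GLS2, a glutaminase, had a change of -0.57 with groups that did not overlap, and it did not pass (adjusted P = 0.129). The 3′ end of GLS2 overlaps SPRYD4 on the opposite strand. SLC1A5 and SLC38A1, the glutamine transporters counted most highly, had changes of -0.24 and 0.04.

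The calls of the members differed in how far they depended on the settings. PCK2 was called under all 11 other settings shown in the plot of members by setting, ACO1 under 9, ME1 under 8, GOT1 under 6, IDH1 under 5, FH under 4 and OGDH under 2. DESeq2 called ME1, ACO1 and PCK2 alone. Without abemaciclib replicate 3, the library farthest from its group, ME1, ACO1, OGDH, PCK2 and GOT1 stayed called, PC joined them, and IDH1 and FH did not pass (adjusted P = 0.0532 and 0.0531).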

How the data were processed

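Single-end QuantSeq 3′ mRNA reads were trimmed with BBDuk, aligned to hg38 with STAR 2.7.5b and counted per gene with featureCounts 2.0.1 on a GENCODE annotation by the authors, whose deposited values are raw counts with no filter or normalization. Whether the counting used strand is not given in the sources used here. The study describes independent biological replicates, and libraries were grouped by their labels.

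Symbols were matched by Ensembl identifier (60445 of 60656 genes). Counts were tested with edgeR 4.0.16 in R 4.3.3 (filterByExpr, TMM, glmQLFit and glmQLFTest, treatment as the only term), with Benjamini–Hochberg adjustment over 10863 genes at a threshold of 0.05. The SE is the log2 fold change divided by the square root of F. Ratios were taken as log2 of counts plus 0.5 within a library. Alternatives were DESeq2 1.42.0, its size factors, total counts, no filter, at least 10 counts in each library, the replicate block and each library left out in turn. The test was tested on simulated data.

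Members and lists were chosen with earlier results of these data known. All 32 members are named, with values in every library for those past the threshold and those with the smallest and largest change, and of the other pathway genes the 5 largest rises and falls among those called, less a result that is not reported here. MKI67 and RB1 are check genes. Overlaps at 3′ ends were read from GENCODE on GRCh38 within 500 bases, and promoters from RefSeq.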

Additional observations from a re-analysis of the deposited data

How the results depend on the processing

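Members counted higher went from 4 to 2 with DESeq2 and to 1 with the replicate block, and ranged from 0 to 4 with each library left out. The 0 came without DMSO replicate 2 (edgeR quasi-likelihood test), where 4 members were higher at an unadjusted p under 0.05, as with DESeq2 on all libraries. Members counted lower went from 3 to 1 with DESeq2 and ranged from 1 to 2 with each library left out. The members' median log2 fold change ranged from -0.0197 to 0.106 with each library left out. For the other pathway genes, the median was 0.15 without a filter on low counts, where genes with few counts are added, and 4 were higher with the replicate block. The cause of the other shifts was not tested.

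Replicate numbers gave no sign of pairing: deviations of same-numbered libraries from their group means correlated at -0.04, 0.01 and -0.09. With so few libraries this does not show that they were unpaired, and the labels do not say. With the replicate block, GOT1, ME1 and PCK2 were called, and of the other pathway genes SDHC, ACSS2 and SLC25A10 no longer were (adjusted p = 0.0560, 0.0729 and 0.0726).

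Left-out libraries turned the sign only of members that had not passed the test: MPC2 (-0.20 to 0.0828), PDHB (-0.12 to 0.24), CS (-0.13 to 0.19), IDH3A (-0.0289 to 0.115), IDH3B (-0.092 to 0.226), IDH3G (-0.19 to 0.0396), DLST (-0.27 to 0.21), SUCLG1 (-0.16 to 0.0767), MDH1 (-0.15 to 0.0439), ME2 (-0.26 to 0.0537) and SLC25A1 (-0.10 to 0.21). Of 147 values of the comparisons, 133 stayed within their limits and 14 moved. The limits were 1.5-fold for counts of genes, the SD of the treated libraries for medians and the same sign for ratios. The summed level was counted as within its limits although its sign turned, so these counts say little about it. Depth limits members under 10 CPM most, such as PC, DLST and SUCLA2.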
